A study of Mus musculus with 10 samples.

Results

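The ETS transcription factors described here are 10 genes, chosen by name: Erg, Fli1, Etv6, Ets1, Ets2, Elf1, Elf2, Elk3, Elk4 and Gabpa. Earlier results of these data were known when they were chosen. All 10 were found in a table of 55359 genes, and they are 10 of the 27 genes of the ETS family that the table lists. RNA-seq was performed on lineage-negative (Lin-) bone marrow cells, the fraction that remains after cells bearing markers of mature blood lineages are removed with a depletion kit. The question was how loss of Dhx9, an RNA and DNA helicase, alters the transcriptome of these cells. The 5 WT mice were Dhx9f/f, with both Dhx9 alleles flanked by loxP sites and no Cre. The 5 cKO mice were Dhx9f/f;MX1, which carry the same floxed alleles and a Cre recombinase under the Mx1 promoter. That promoter responds to interferon and is switched on by injecting poly(I:C), a double-stranded RNA mimic, and it is active in more tissues than blood. The study's methods state that mice with this Cre were given repeated doses of poly(I:C) in the days before analysis. In GEO the genotype of the cKO samples is given as a Dhx9 knock down. The sources used here do not state whether the sequenced WT mice also received poly(I:C), and the labels give no age. An effect of the injection and an effect of the deletion therefore cannot be told apart.

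ETS factors bind DNA through a shared ETS domain that recognises a short core, GGA, and differ in the bases around it and in their partners. ERG and FLI1 are close relatives that bind together with RUNX1, TAL1, LMO2 and GATA2 in blood stem and progenitor cells, and FLI1 is also needed for megakaryocytes. ETV6 is a repressor needed for adult HSCs, ETS1 acts mainly in lymphocytes, ELK3 and ELK4 are ternary complex factors that bind DNA with serum response factor, and GABPA, the DNA-binding subunit of GABP, serves many housekeeping and mitochondrial genes.

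Values are FPKM, fragments scaled to transcript length and to the depth of the library. Levels are compared between genes on this scale, which depends on gene lengths that the sources used here do not give. From the low values, depth was estimated at 15043600 to 18712800 fragments in the WT libraries and 13838000 to 17190200 in the cKO libraries. Dhx9 itself went against the labels: it was at 69.7 ± 2.84 FPKM in WT (SD, n = 5) and at 140 ± 12.0 in cKO (n = 5). A value for the whole gene cannot show the loss of single exons, but because of it every direction below rests on the labels, and the groups are the libraries labelled WT and the libraries labelled cKO. Xist, transcribed from the inactive X chromosome of female cells, was at 99.19 to 127.76 FPKM in WT 3, WT 4 and WT 5 and at no more than 0.09 in the other 7 libraries. By this marker the groups differ in sex, and a fit with Xist as a covariate, which sets WT 1 and WT 2 against the cKO libraries, is given where it ends a call. Nothing in the labels names a culture, litter or run, so p-values measure the spread between these libraries. Calls required both a limma adjusted p under 0.05 and a change of 2-fold or more on log2(FPKM + 0.1), the scale of all fold changes given.

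ETS motifs in the members' own promoters were looked for first, because ETS factors are known to regulate one another. In the 250 bases upstream of the main annotated start of 21757 genes (GRCm39), both strands were searched for CCGGAAGT, found in 2.64% of promoters, ACAGGAAGT, found in 0.653%, and GAGGAAGT, found in 2.08%. The first and the last are not contained in each other, and all share the letters GGAAGT. Of the 10 members, Elk4 and Gabpa each held CCGGAAGT and GAGGAAGT, and Elf2 held ACAGGAAGT. The 5 matches are shown because they lie in the 3 members that did not pass the test as lower in cKO, with the match in capitals and 30 bases in all, read 5′ to 3′ on the gene's strand.
Elk4, CCGGAAGT, 46 bases upstream, chr1:131935279-131935308, plus strand: cggcccctcccCCGGAAGTgacgctcgcgc
Elk4, GAGGAAGT, 170 bases upstream, chr1:131935155-131935184, plus strand: tttgggcctgcGAGGAAGTacgaatgtccg
Gabpa, CCGGAAGT on the opposite strand, 179 bases upstream, chr16:84631735-84631764, plus strand: gccaccgttctACTTCCGGccctggctccg
Gabpa, GAGGAAGT, 26 bases upstream, chr16:84631888-84631917, plus strand: ccaaacaggagGAGGAAGTggagggtaagt
Elf2, ACAGGAAGT on the opposite strand, 25 bases upstream, chr3:51184949-51184978, minus strand: cccgggactgACTTCCTGTctgggcgcggg

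The other 7 members, each lower in cKO at an adjusted p under 0.05, had no match to these letters in this window, which says nothing of binding by any factor. With shares of 0.653% to 2.64%, the matches in 3 of 10 promoters are a description of few genes. Elk3 and Erg, which had the deepest falls, are shown for comparison, in lower case because they hold no match.
Elk3, chr10:93147057-93147306, minus strand: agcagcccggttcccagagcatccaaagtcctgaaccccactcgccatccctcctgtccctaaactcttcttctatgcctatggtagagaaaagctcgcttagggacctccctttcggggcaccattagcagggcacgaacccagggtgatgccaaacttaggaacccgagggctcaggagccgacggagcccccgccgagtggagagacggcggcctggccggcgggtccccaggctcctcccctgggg
Erg, chr16:95260208-95260457, minus strand: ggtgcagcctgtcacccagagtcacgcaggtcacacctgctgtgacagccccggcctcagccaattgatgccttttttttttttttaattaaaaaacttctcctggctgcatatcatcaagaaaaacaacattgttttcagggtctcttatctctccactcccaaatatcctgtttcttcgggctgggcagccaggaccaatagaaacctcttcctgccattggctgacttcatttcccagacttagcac

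The 2 windows differ in composition. GC content was 63.6% with 14 CpG dinucleotides for Elk3 and 47.2% with 3 for Erg, against a median GC content of 53.2% over all promoters. Of the other members lower at the adjusted p, Elf1 held 3 CpG dinucleotides, Fli1 10, Etv6 11, Ets2 13 and Ets1 27. Gabpa held 22, Elk4 23 and Elf2 25. Ets1 thus held the most of the 10, and the lower members did not all hold fewer than Gabpa, Elk4 and Elf2. A link between CpG count and the change in level was not tested. Each member has several annotated starts, only the main one was read, and the counts hold for that start alone. In RefSeq's promoter table, which runs from 250 bases before to 50 after a start on the same build and matched 8 of the 10 members (Ets1 and Fli1 were not in it), matches were again seen in Elk4, Gabpa and Elf2, although CCGGAAGT was found in Elk4 and not in Gabpa.

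Among the 10 members, 5 were lower in cKO by at least 2-fold (Erg, Fli1, Etv6, Ets1 and Elk3) and 0 were higher. Of all 18742 genes tested, 16.8% were called lower and 4.6% higher. On the adjusted p alone, 7 members were lower (28.3% of all genes), adding Ets2 and Elf1, and Elk4 was higher (16.7% of all genes). Gabpa and Elf2 did not pass. All 5 cKO libraries lay below all 5 WT libraries for 6 members (21.6% of all genes), and above them for Elk4 (10.6% of all genes). The median log2 fold change, cKO against WT, was -1.08 over the members and -0.11 over all genes tested. In bulk RNA, fewer cells of a type and less RNA per cell cannot be told apart.

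**Figure D1:**
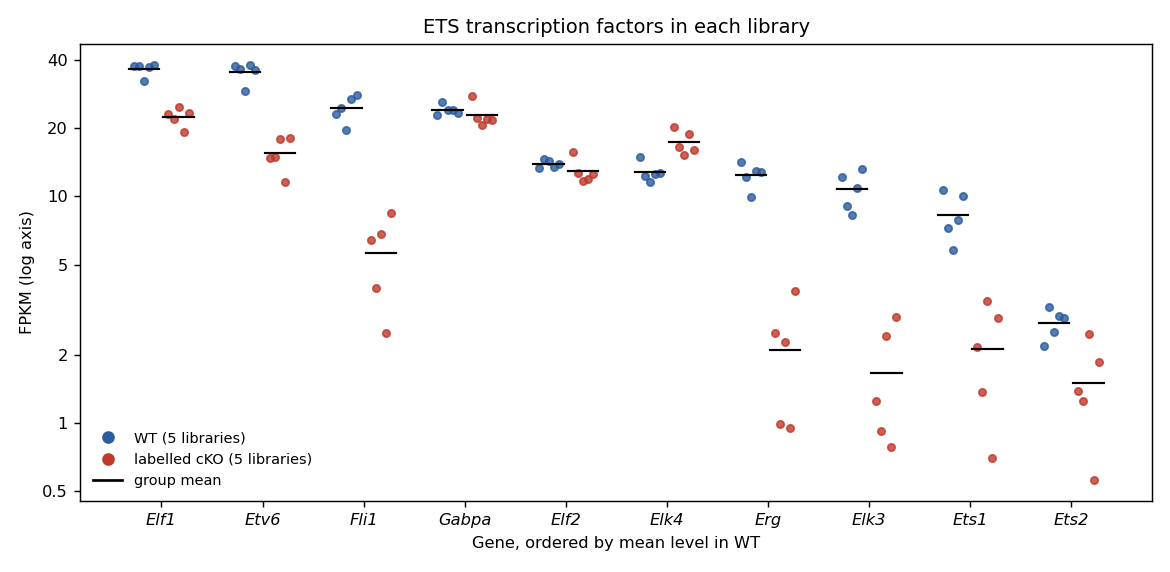
FPKM of each of the 10 ETS members in each of the 5 WT and 5 cKO libraries, on a log axis, with points for libraries and lines for the group mean. The cKO libraries lie below all WT libraries for Erg, Fli1, Etv6, Ets1, Elk3 and Elf1 and above them for Elk4.

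Erg (ENSMUSG00000040732, chr16:95160028-95387452, minus strand) encodes a factor required for self-renewal of HSCs. Its level was 14.18, 12.18, 9.91, 12.92 and 12.78 FPKM in WT 1 to 5. In cKO 1 to 5 it was 2.50, 0.99, 2.27, 0.95 and 3.81 FPKM, about 49 to 211 fragments a library. The groups did not overlap, and cKO 5 and cKO 1 kept the most Erg while cKO 2 and cKO 4 had the least. The mean fell from 12.4 ± 1.57 to 2.10 ± 1.19 FPKM (SD, n = 5 each), 6.39-fold on the scale tested. The log2 fold change was -2.68 (SE 0.336, 95% interval -3.42 to -1.93, limma adjusted p 0.000171).

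Fli1 (ENSMUSG00000016087, chr9:32333500-32454157, minus strand), the closest relative of Erg, acts in HSCs, megakaryocytes and endothelium. WT 1 to 5 were at 23.11, 24.60, 19.54, 26.91 and 28.11 FPKM. The cKO libraries were at 6.40, 3.94, 6.85, 2.50 and 8.47 FPKM, in the same order. Even the highest cKO library, cKO 5, had less than the lowest WT library, WT 3, and cKO 4 again had the least. The mean of 24.5 ± 3.37 FPKM in WT compared with 5.63 ± 2.39 in cKO, 23.0% of the WT mean. This gave a log2 fold change of -2.21 (SE 0.284, 95% interval -2.83 to -1.58, adjusted p 0.000192).

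Etv6 (ENSMUSG00000030199, chr6:134011980-134247121, plus strand) encodes a repressor that adult HSCs need. In WT 1 to 5 the level was 37.43, 36.34, 29.10, 38.04 and 36.00 FPKM, and in cKO 1 to 5 it was 14.69, 14.90, 17.92, 11.57 and 18.15 FPKM. No cKO library reached the WT range, and relative to their mean the cKO libraries varied by 17.5% (coefficient of variation), against 56.6% for Erg and 42.4% for Fli1. The level fell from 35.4 ± 3.61 to 15.4 ± 2.71 FPKM, to 43.7% of the WT mean, with a log2 fold change of -1.20 (SE 0.126, 95% interval -1.48 to -0.92, adjusted p 8.45e-05). Erg, Fli1 and Etv6 were among the genes the study chose to display from these same samples, so their direction is not independent evidence.

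Ets1 (ENSMUSG00000032035, chr9:32547517-32669116, plus strand), best known from T, B and NK lymphocytes, had the lowest WT level of the 5 members called. WT 1 to 5 were at 10.64, 7.26, 5.79, 7.82 and 10.02 FPKM and cKO 1 to 5 at 2.17, 1.37, 3.45, 0.70 and 2.89 FPKM. WT 1 and WT 5 were the highest, cKO 3 came nearest to the WT range, and the groups did not overlap. The mean fell from 8.31 ± 2.0 to 2.12 ± 1.11 FPKM, with a log2 fold change of -2.07 (SE 0.369, 95% interval -2.89 to -1.26, adjusted p 0.00107).

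Ets2 (ENSMUSG00000022895, chr16:95502847-95522095, plus strand), the paralogue of Ets1 and a target of ERK phosphorylation, was the least abundant member. It was at 2.19, 3.26, 2.51, 2.96 and 2.91 FPKM in WT 1 to 5 and at 1.39, 1.25, 2.47, 0.56 and 1.86 FPKM in cKO 1 to 5. Here the groups overlapped, because cKO 3 lay above WT 1. The mean was 2.77 ± 0.418 FPKM in WT and 1.51 ± 0.712 in cKO. Its log2 fold change of -0.96 (SE 0.316, 95% interval -1.65 to -0.26) passed the adjusted p, 0.0289, but not the 2-fold limit. Among the members lower at the adjusted p, Ets2 was the one whose result changed side with the alternatives run. With quantile normalization the log2 fold change was -0.45 (adjusted p 0.212), the Xist covariate gave an adjusted p of 0.137, and leaving out WT 2, WT 4, WT 5 or cKO 2 gave 0.0592 to 0.0648. Leaving out WT 1, cKO 3 or cKO 5, or a pseudocount of 0.01 FPKM, instead carried it past both limits.

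Elf1 (ENSMUSG00000036461, chr14:79718605-79820044, plus strand), an activator broadly expressed in blood cells, was the most abundant member in WT. Its levels were 37.48, 37.59, 32.25, 37.32 and 37.97 FPKM in WT 1 to 5 and 23.17, 21.91, 24.68, 19.17 and 23.37 FPKM in cKO 1 to 5. All cKO libraries were below all WT libraries, and WT 3 and cKO 4 were the lowest of their groups. The mean fell from 36.5 ± 2.40 to 22.5 ± 2.08 FPKM. The log2 fold change, -0.70 (SE 0.0784, 95% interval -0.87 to -0.53, adjusted p 0.000108), was small against 2-fold but large against the spread of the libraries.

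Its paralogue Elf2 (ENSMUSG00000037174, chr3:51160141-51248242, minus strand) is made as activating and repressing isoforms, which a gene total does not separate. WT 1 to 5 were at 13.38, 14.58, 14.33, 13.50 and 13.88 FPKM and cKO 1 to 5 at 15.66, 12.71, 11.69, 11.93 and 12.59 FPKM. The highest and the lowest library were both cKO, so the groups overlapped. The means were 13.9 ± 0.518 and 12.9 ± 1.59 FPKM, and the log2 fold change of -0.12 (SE 0.0844, 95% interval -0.30 to 0.07, adjusted p 0.292) did not pass. The single high library decided this: without cKO 1 the log2 fold change was -0.19 with an adjusted p of 0.0190.

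Elk3 (ENSMUSG00000008398, chr10:93083276-93147056, minus strand) encodes a ternary complex factor that represses until ERK signalling turns it into an activator, and is known from endothelial cells. Its level was 12.18, 9.07, 8.29, 10.91 and 13.15 FPKM in WT 1 to 5. In cKO 1 to 5 it was 1.25, 0.92, 2.41, 0.78 and 2.94 FPKM. The lowest WT library held more than the highest cKO library, cKO 5. The fall from 10.7 ± 2.04 to 1.66 ± 0.961 FPKM left 15.5% of the WT mean, the smallest share kept by any of the 10 members. The log2 fold change was -2.77 (SE 0.332, 95% interval -3.51 to -2.04, adjusted p 0.000140), and this interval includes the estimate for Erg.

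Elk4 (ENSMUSG00000026436, chr1:131935116-131960350, plus strand), a second ternary complex factor, moved the other way. WT 1 to 5 were at 14.91, 12.25, 11.54, 12.60 and 12.61 FPKM and cKO 1 to 5 at 20.13, 16.44, 15.23, 18.81 and 16.06 FPKM. Every cKO library was above every WT library, with cKO 3 only slightly above WT 1. The mean rose from 12.8 ± 1.27 to 17.3 ± 2.05 FPKM, a log2 fold change of 0.43 (SE 0.0967, 95% interval 0.22 to 0.65, adjusted p 0.00396), under the 2-fold limit. With the Xist covariate it was 0.35 and the adjusted p was 0.0636.

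Gabpa (ENSMUSG00000008976, chr16:84631140-84660672, plus strand) was at 22.86, 26.04, 24.02, 24.07 and 23.32 FPKM in WT 1 to 5 and at 27.65, 22.11, 20.72, 22.02 and 21.63 FPKM in cKO 1 to 5. As for Elf2, cKO 1 was the highest library and the other 4 cKO libraries lay below all WT libraries. The means were 24.1 ± 1.22 and 22.8 ± 2.75 FPKM. A log2 fold change of -0.08 (SE 0.0817, 95% interval -0.26 to 0.10, adjusted p 0.446) did not pass, and its sign turned to 0.024 with median-ratio scaling. Without cKO 1 it was -0.15 with an adjusted p of 0.0367. The interval excludes a 2-fold change in either direction.

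**Figure D2:**
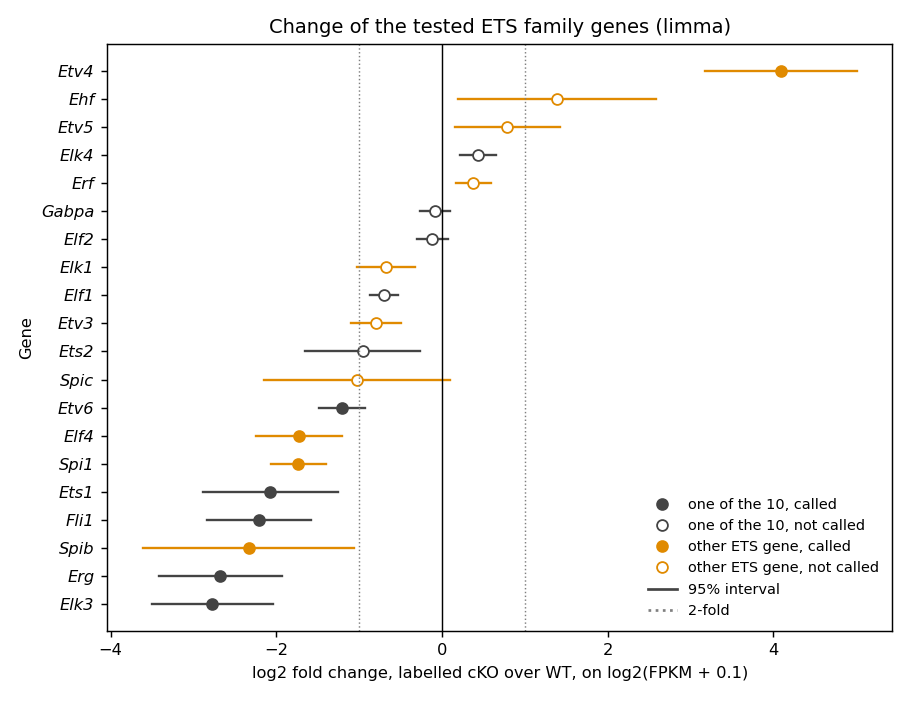
Log2 fold change (cKO against WT, on log2(FPKM + 0.1)) of the ETS family genes tested, with points for the estimates and bars for the 95% interval. Of the 10 members, Elk3, Erg, Fli1 and Ets1 lie beyond -2, the intervals of Elf2 and Gabpa include 0, and Elk4 lies above 0, while of the others Spib lies beyond -2, the interval of Spic includes 0, and Etv4, Ehf, Etv5 and Erf lie above 0.

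Some of these values share sequence with a neighbour. Elf1, Elk3, Elk4 and Gabpa overlap a protein-coding gene on the opposite strand (Wbp4, Cdk17, Mfsd4a and Atp5pf). Whether the counting used strand is not stated, so reads from such a pair may not have been told apart and these 4 levels are uncertain to that extent. Cdk17 was at 12.9 FPKM in WT and 15.3 in cKO while Elk3 fell, and Wbp4 was at 7.27 and 7.14 while Elf1 fell. Mfsd4a was at 5.34 in WT and 6.68 in cKO, higher in cKO as Elk4 was, and Atp5pf was at 35.3 and 37.8. The part of the overlap in these levels was not tested.

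In WT the order of the mean levels was Elf1, Etv6, Fli1, Gabpa, Elf2, Elk4, Erg, Elk3, Ets1 and Ets2, from the highest down. The ranges of neighbours in that order were apart between Etv6 and Fli1, between Gabpa and Elf2 and between Ets1 and Ets2, and overlapped for the other 6 neighbouring pairs. In cKO the order was Gabpa, Elf1, Elk4, Etv6, Elf2, Fli1, Ets1, Erg, Elk3 and Ets2, and ranges were apart only between Elf2 and Fli1. On either side of that gap, 5 members were at 11.57 FPKM or more in every cKO library and 5 were at 8.47 FPKM or less. Summed over the 10 members, the level was 181 ± 13.7 FPKM in WT and 104 ± 10.9 in cKO.

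As a share of the FPKM of all 27 ETS genes, a measure of the makeup of the family's RNA, Elk4 went from 4.88% in WT to 12.1% in cKO and Gabpa from 9.24% to 15.8%. Elf2 went from 5.36% to 8.95%. Elf1, whose level fell, also held more, 13.9% in WT and 15.5% in cKO. Fli1 went from 9.30% to 3.80%, Erg from 4.71% to 1.41% and Elk3 from 4.06% to 1.12%. Etv6 went from 13.5% to 10.6% and Ets1 from 3.14% to 1.42%. The mean share of Ets2 was 1.06% in WT and 1.02% in cKO, where single libraries ran from 0.442% to 1.63%. Shares within a sum are tied to one another, and the shift for Gabpa and Elf2 came with levels that did not pass the test. They are given without a test.

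**Figure D3:**
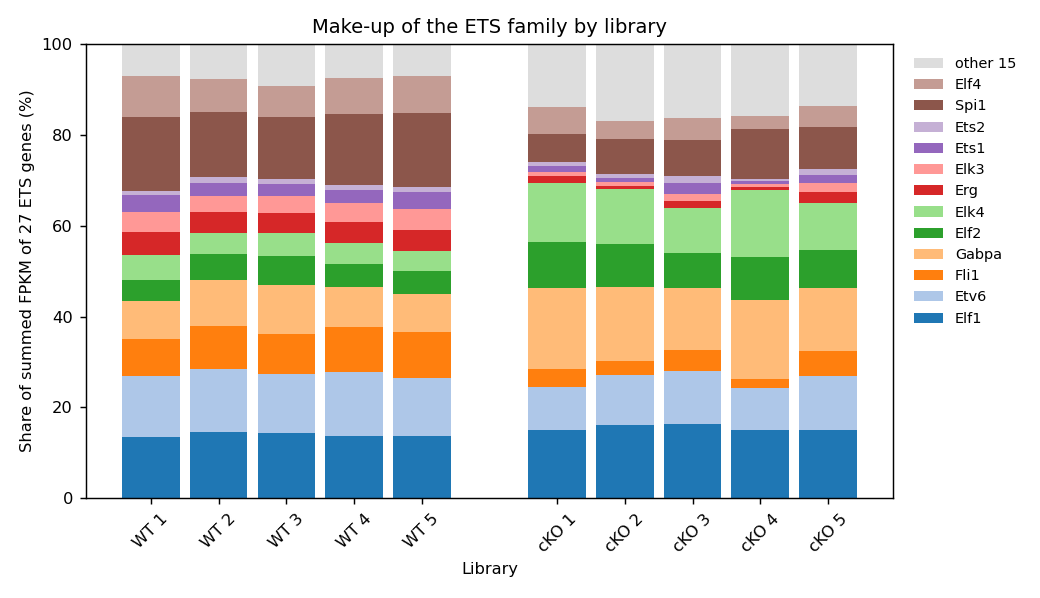
Share of the summed FPKM of 27 ETS family genes held by each member, in percent, for the WT and cKO libraries. Elk4, Gabpa, Elf2 and Elf1 hold more in cKO on average, and Erg, Fli1, Elk3, Etv6 and Ets1 hold less.

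The difference between related or neighbouring members was tested directly with the log2 ratio of their values within each library, after 0.1 FPKM was added to each. An exact two-sided permutation test over 5 against 5 libraries was used for 6 pairs. Its smallest possible p, 0.00794, becomes 0.00952 when adjusted over the 6 pairs. For Elk3 over Elk4 the mean log2 ratio went from -0.27 in WT to -3.47 in cKO, a difference of -3.21 (SE 0.415, exact permutation adjusted p 0.00952). The pair of ternary complex factors, close to equal in WT, was therefore far apart in every cKO library. Elk3 was lower and Elk4 higher in every cKO library than in any WT library. The smallest p was thus fixed for this pair and adds nothing to the values of the 2 genes. For Ets1 over Ets2 the ratio went from 1.53 to 0.42, a difference of -1.11 (SE 0.227), and for Elf1 over Elf2 from 1.38 to 0.80, a difference of -0.59 (SE 0.105), each at the same exact permutation adjusted p of 0.00952.

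Erg over Fli1 went from -0.97 to -1.44, a difference of -0.47 (SE 0.150, exact permutation adjusted p 0.00952). The groups met without overlapping, with the lowest WT and the highest cKO ratio both at -1.13. This is the one paralogue pair whose difference depended on the pseudocount, since with 1 FPKM added it was -0.17 (exact permutation adjusted p 0.167).

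Members that lie next to each other in the genome were compared in the same way. Fli1 and Ets1 lie head to head on chromosome 9, 93359 bp apart, and Erg and Ets2 lie head to head on chromosome 16, 115394 bp apart, each with 0 protein-coding genes between them. Fli1 over Ets1 was at 1.57 in WT and 1.43 in cKO, a difference of -0.14 (SE 0.176, exact permutation adjusted p 0.468), and the groups overlapped. With a pseudocount of 1 FPKM it was -0.38 (exact permutation adjusted p 0.0476). Erg over Ets2 went from 2.13 to 0.41, a difference of -1.72 (SE 0.294, exact permutation adjusted p 0.00952). For one neighbouring pair a difference in the size of the fall was thus not detected at the pseudocount of 0.1, and for the other it was larger than the spread between libraries.

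**Figure D4:**
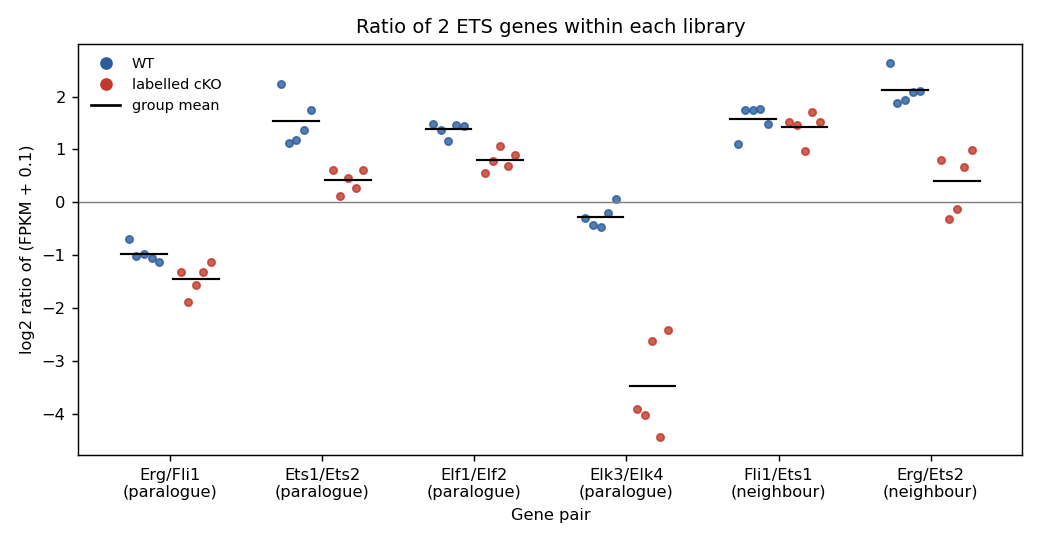
Log2 ratio of the FPKM of 2 members within each library, for 4 paralogue pairs and 2 pairs of chromosome neighbours, in WT and cKO. Points show libraries and lines show the group mean. Groups overlap for Fli1 over Ets1 and meet at -1.13 for Erg over Fli1, and the widest gap is that of Elk3 over Elk4.

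The cKO libraries did not fall evenly. For all 7 members that were lower at the adjusted p, cKO 4 was the lowest library, and the highest was cKO 5 for 4 of them and cKO 3 for 3. The coefficient of variation across cKO libraries was 42.4% for Fli1, 47.3% for Ets2, 52.5% for Ets1, 56.6% for Erg and 57.9% for Elk3. For Elk4, Elf2 and Gabpa, cKO 1 was the highest library and cKO 3 the lowest. Among the WT libraries, WT 3 was the lowest in 7 of the 10 members.

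**Figure D5:**
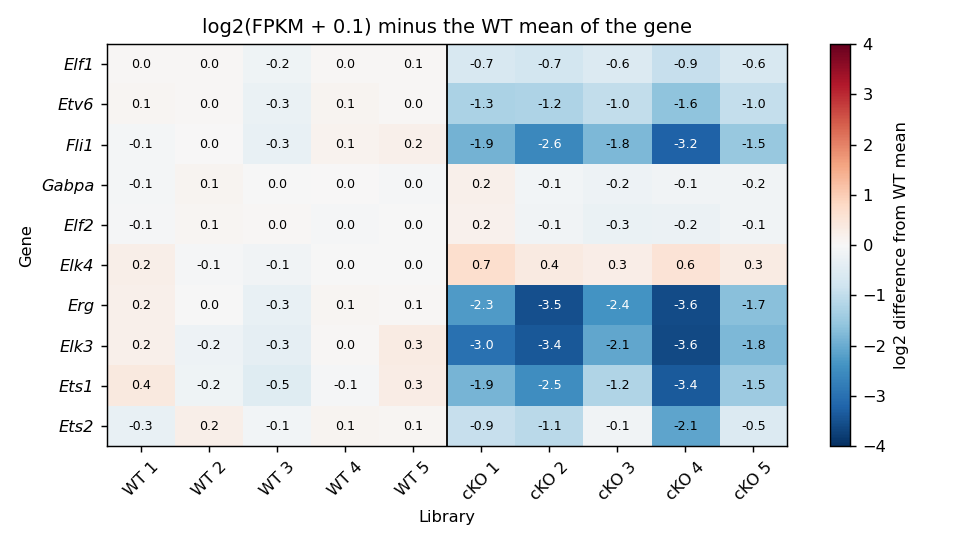
Log2 difference of each library from the WT mean for each ETS member, on log2(FPKM + 0.1), with members as rows and libraries as columns. Library cKO 4 holds the lowest value for 7 members, and the reading for Erg in it is -3.56.

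Markers of other cells also differed between the groups, and only some of the lists followed the same order of cKO libraries. The summed FPKM of 10 HSC and early progenitor markers was 105.68 to 146.13 in WT and 51.45, 35.06, 56.91, 33.87 and 62.20 in cKO 1 to 5, so cKO 4 was lowest and cKO 5 highest there as well. In this list 8 of 10 markers were called lower and 0 higher, and the median log2 fold change was -2.07. Of all genes, 16.8% were called lower and 4.6% higher. At the adjusted p alone all 10 were lower, beside 28.3% of all genes. The sum of 10 monocyte and dendritic cell markers was 753.62 to 1326.97 in WT and 47.42, 15.66, 149.10, 5.07 and 211.99 in cKO 1 to 5, and 10 of 10 were called lower. B lymphoid markers (9 listed in the table) summed to 28.31 to 36.23 in WT and 0.94 to 8.66 in cKO, with 5 of 8 tested lower. T and NK markers summed to 9.92 to 12.97 and 1.53 to 8.03, with 5 of 10 lower. Both sums were lowest in cKO 4. The B lymphoid sum was highest in cKO 5 and the T and NK sum in cKO 3. The part of these cells in the levels of Erg, Fli1, Etv6, Ets1 and Elk3 was not tested.

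Megakaryocyte and platelet markers, relevant to Fli1, summed to 300.87 to 1328.42 in WT and 120.59 to 207.74 in cKO. Of these, 9 of 10 were called lower. Beside this count and those that follow, 16.8% of all genes were called lower and 4.6% higher. Endothelial markers, relevant to Erg, Fli1 and Elk3, summed to 32.08 to 37.54 and 14.39 to 21.98, with 5 of 9 lower. Neutrophil markers (4 of 10 lower) summed to 2725 to 3698 in WT and 147 to 2594 in cKO, mast cell, basophil and eosinophil markers (7 of 10 lower) to 624 to 1294 and 229 to 593, and stromal markers (4 of 6 lower, 1 higher) to 13.68 to 23.37 and 5.73 to 11.24. Erythroid markers were the only one of these lists with a higher sum in cKO, from 563.03 to 1596.17 in WT to 2198.70 to 3483.88 in cKO, with 6 of 10 called higher. The order of the cKO libraries differed between these lists. The megakaryocyte sum was lowest in cKO 2 and highest in cKO 1. Endothelial and stromal sums were lowest in cKO 1 and highest in cKO 3. Neutrophil and mast cell sums were lowest in cKO 4 but highest in cKO 1, and the erythroid sum was lowest in cKO 5. No marker in the table was at 0 in all libraries. The part of these cells in the members' levels was not tested either.

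Of the other 17 ETS family genes, 10 were expressed enough to be tested, and the remaining 7 had no value above 0.08 FPKM in any library (Fev, Etv2 and Etv3l were listed at 0 throughout). The count called lower was 3, beside 16.8% of all genes, and higher 1, beside 4.6%, and the median log2 fold change was -0.74. Spi1, which encodes PU.1, the master factor of myeloid and B cell fate, fell from 40.3 ± 6.59 to 12.1 ± 2.26 FPKM (log2 fold change -1.73), and its relative Spib from 1.54 ± 0.425 to 0.336 ± 0.357 FPKM with groups that overlapped. Elf4, an activator known from NK and CD8 T cells and HSC quiescence, fell from 20.8 ± 3.92 to 6.42 ± 2.10 FPKM (log2 fold change -1.73). The study also displayed Spi1 and Spib from these samples.

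Etv4 was the only ETS family gene called higher. It was at 0.02, 0, 0.04, 0 and 0.02 FPKM in WT 1 to 5, about 0 to 2 fragments, and at 0.68, 2.60, 3.69, 2.74 and 1.17 FPKM in cKO 1 to 5, about 30 to 188 fragments. All cKO libraries were above all WT libraries, and no fold is given because the WT libraries were at or under the floor of 3 fragments. Only the cKO values carried Etv4 past the filter, a mean of 0.1 FPKM over the 10 libraries. Its call is therefore a description of these values and no further support for a rise. On the adjusted p alone Etv5, of the same PEA3 group, and the repressor Erf were also higher, with log2 fold changes of 0.79 and 0.38, while Etv3 and Elk1 were lower, at -0.80 and -0.68. These 4 are named after their values were seen.

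Genes of partner proteins of the ETS factors came next. Of 19 tested, 3 were called lower, beside 16.8% of all genes, and 0 higher, beside 4.6%, and the median log2 fold change was -0.23. Without the fold limit 7 were lower, beside 28.3% of all genes, and 2 higher, beside 16.7%. The 2 higher were Tal1 and Ldb1, members of the complex that ERG and FLI1 join, with log2 fold changes of 0.50 and 0.31. Other partners on the list did not rise with them. Gata2 and Lyl1 were lower at the adjusted p, at -0.90 and -0.68, and Lmo2 did not pass, at 0.02. The largest falls were Mrtfa, a cofactor of serum response factor, from 9.12 ± 1.43 to 2.19 ± 0.546 FPKM, and Cbfb, the partner subunit of RUNX factors, from 53.7 ± 7.20 to 19.3 ± 5.73 FPKM. The count of 3 is completed by Runx1, whose protein also binds with ERG and FLI1, with a log2 fold change of -1.11. Runx1, Tal1, Ldb1, Gata2, Lyl1 and Lmo2 are named here after their values were seen.

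A list of 19 genes holds the ERK cascade, other kinases that phosphorylate ETS factors (p38 and CaMKII), feedback inhibitors of the cascade and the ubiquitin ligase genes Cop1 and Det1. In it 3 were called lower, beside 16.8% of all genes, and 1 higher, beside 4.6%, and the median log2 fold change was -0.02. On the adjusted p alone 7 were lower, beside 28.3% of all genes, and 5 higher, beside 16.7%. The kinase gene Mapk3, which encodes ERK1, fell from 31.0 ± 4.15 to 13.8 ± 1.48 FPKM. The feedback inhibitors Spry2 and Spry1 moved in opposite directions, Spry2 from 5.62 ± 1.23 to 2.07 ± 1.0 FPKM and Spry1 from 2.29 ± 0.593 to 5.48 ± 1.58 FPKM. Among 9 tested targets of the ternary complex factors, 2 were called lower, beside 16.8% of all genes, and 1 higher, beside 4.6%. With the adjusted p alone 4 were lower, beside 28.3% of all genes, and 3 higher, beside 16.7%. Fos fell from 3.35 ± 1.26 to 0.668 ± 0.673 FPKM, whereas Egr1 rose from 0.508 ± 0.229 to 4.19 ± 3.13 FPKM, so these immediate-early genes did not move together.

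Of 14 genes known as GABP targets, 3 were called lower, beside 16.8% of all genes, and 0 higher, beside 4.6%. The median log2 fold change was 0.09, against -0.11 for all genes. The falls were led by Il7r, the interleukin-7 receptor, at a log2 fold change of -1.87, and Itgb2, a leukocyte integrin, at -1.19. On the adjusted p alone 3 were lower, beside 28.3% of all genes, and 4 higher, beside 16.7%. The 4 were the mitochondrial genes Tomm20 (log2 fold change 0.74), Cox5b (0.55), Atp5f1b (0.50) and Cox4i1 (0.35), each with all cKO libraries above all WT libraries and named after their values were seen. Other mitochondrial genes on the list did not pass, namely Tfam (0.19), Tfb2m (0.18), Sdhd (0.11) and Tfb1m (-0.007).

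Of 17 genes known as FLI1 or ERG targets, 12 were called lower, beside 16.8% of all genes, and 0 higher, beside 4.6%, and the median log2 fold change was -1.68. By the adjusted p alone 15 were lower, beside 28.3% of all genes, and 1, Tal1, was higher, beside 16.7%. Gp6, the platelet collagen receptor, fell from 7.16 ± 2.98 to 0.464 ± 0.225 FPKM and Cd34, a progenitor surface protein, from 25.6 ± 3.44 to 3.10 ± 2.33 FPKM. This list is not separate from the cell markers. Of its genes, 10 are also on an HSC or megakaryocyte marker list and 9 of these were called lower, while of the 7 that are on neither, 3 were. Those 3 are Gp1ba and Selp, which platelets also carry, and Runx1, already counted among the partners, and the partner list shares 4 genes with this one.

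The genes whose profile over the 10 libraries was nearest to a called member were found among 12352 genes by the root mean square difference of centred log2 values, where 0 would be the same profile. For Etv6 they were Flna (0.0880), Casp8 (0.0907) and Nfatc1 (0.0910), and for Fli1 they were Sptbn1 (0.104), Fndc3b (0.140) and Pycard (0.142). Nearest to Erg were Itpripl2 (0.114), Zfp608 (0.135) and Tmem176b (0.144). Elk3 was nearest to Crybg3 (0.158), Plekho1 (0.163) and Map3k14 (0.172), and Ets1 to Krt18 (0.169), Sh3bp5 (0.176) and Sema4a (0.184). No ETS member was among the 3 nearest genes of another.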

How the data were processed

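Lin- bone marrow cells of 5 Dhx9f/f (WT) and 5 Dhx9f/f;MX1 (cKO) mice were measured by paired-end RNA-seq. The authors removed adapters and reads of quality under 20 and aligned to GRCm39. The deposited values are FPKM of each gene, given to 2 decimals. The submitters' processing notes name cutadapt 1.9.1, HISAT2 2.0.1 and HTSeq 0.6.1. The annotation, the gene lengths and the use of strand are not given in the sources used here.

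All 10 columns were mapped to samples by their names. FPKM are not counts, so the count test of the study was not run. In R 4.3.3, limma 3.58.1 was run with a mean-variance trend, two-sided, on log2(FPKM + 0.1) for the 18742 genes that averaged 0.1 FPKM or more, with Benjamini-Hochberg adjustment over all of them. Pairs of members were compared by exact permutation in scipy 1.17.1. The scripts were tested on simulated data. Depth was estimated from genes with 1 transcript, where 95.8% to 96.3% of values of up to 20 fragments were whole within 0.2, against 40% by chance. Fragment numbers are approximate and cover counting error only. No libraries agreed within the sampling noise. Symbols came from GENCODE vM39, in which 27828 of the 28093 genes above 0 were found.

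The members, the lists, from general knowledge, and the tests were chosen with earlier results of these data known. Named genes were the members, the called genes among the other ETS genes, up to 2 falls and 2 rises per list by size among the called that averaged 1 FPKM or more, the 3 nearest genes of each called member, and Dhx9 and Xist. The alternatives changed the pseudocount (0.01, 1), the filter (none, 1 FPKM), the scaling (median-ratio, equal sum, quantile) or the trend (none), or used a replicate block, the adjusted p alone, a covariate for Xist above 1 FPKM and each library left out. Vpreb1, on the B lymphoid list, was not matched and was not used here.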

Additional observations from a re-analysis of the deposited data

Results flagged for a closer look

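In each group of 5, a library was looked for whose gap to its nearest neighbour was over 0.71 of the group's range (Dixon's test), for the ETS family genes tested, Dhx9 and the ratios of the 6 pairs. Of 54 groups, 5 had such a library, and chance gives about 2.7. Library WT 3 stood low for Etv6, at 29.1 FPKM against 36.0 to 38.04 in the other WT libraries. It also stood low for Elf1, at 32.25 FPKM against 37.32 to 37.97. Library cKO 1 stood high for Elf2, at 15.66 FPKM against 11.69 to 12.71 in the other cKO libraries, and for Gabpa, at 27.65 FPKM against 20.72 to 22.11. Library WT 4 stood low for Elk1, a ternary complex factor, at 2.35 FPKM against 2.66 to 2.75.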

How the results depend on the processing

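Erg, Fli1, Etv6, Ets1 and Elk3 were called lower in all 21 alternatives, and the count of members called lower was 5 to 7. Over all genes, those lower numbered 1486 with a pseudocount of 1, 1827 with a filter at 1 FPKM and 5300 on the adjusted p alone, and those higher 356, 462 and 3138, and 1581 with quantile normalization, in place of 3153 and 862. On the adjusted p alone 1 member was higher, beside 16.7% of all genes, and 5 other ETS genes were lower, beside 28.3%. With each library left out, lower genes numbered 2892 to 3268, higher genes 762 to 948, and members lower 5 to 6. Quantile normalization moved the all-gene median from -0.11 to 0.10 and the higher share of calls from 21.5% to 41.3%. Median-ratio scaling turned Gabpa to 0.024. With a pseudocount of 1, Erg over Fli1 was -0.17 and Fli1 over Ets1 -0.38. Replicate numbers did not pair the samples: same-numbered libraries correlated at -0.0103 to 0.117, and 2 of 5 cKO libraries correlated best with their own number. With the replicate block, 3107 genes were lower and 857 higher, and the calls of the members did not change. The pair differences in the replicate block (sign-flip, exact smallest p 0.0625, adjusted 0.075, which cannot pass) were -0.47 for Erg over Fli1, -1.11 for Ets1 over Ets2, -0.59 for Elf1 over Elf2, -3.21 for Elk3 over Elk4 and -1.72 for Erg over Ets2. The causes of these changes were not tested. Low levels limit Erg, Elk3 and Ets2 most, at about 49, 68 and 52 fragments in cKO 4.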
